A study of Mus musculus with 4 samples.

Results

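The 10 genes of the embryonic stem (ES) cell state followed here, out of the 34968 gene symbols shared by all libraries, were measured in tdTomato+ neurons sorted on day 12 of differentiation: Pou5f1, Nanog, Zfp42, Klf4, Esrrb, Dppa5a, Lin28a, Lin28b, Tdgf1 and Utf1. They were chosen by symbol, as genes of undifferentiated cells, and on their TPM values in these same libraries, which were already known, so those levels are given as a description, with no p-value for any of the 10. All 10 symbols were found in each of the 4 libraries.

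Both lines came from a mouse ES line carrying Dlx6-Cre and the conditional tdTomato reporter Ai9, labelled C57/BL6, to which drug-selected transgenes had been added. The N/D line carried Nkx2-1 together with a tetracycline-controlled activator under a Nestin promoter, and Dlx2 under the promoter that this activator drives. The N/D/S line carried the same Nkx2-1 transgene, and V5-tagged St18 together with Dlx2. Embryoid bodies of both lines received the Wnt inhibitor XAV-939 and the Sonic hedgehog agonist SAG, and tdTomato+ cells were sorted into Trizol on day 12, 2 libraries per line, numbered replicate 1 and replicate 2. Lines were grown from selected clones, the number of clones behind the libraries is not given in the sources used here, and nothing there says that the replicates were separate differentiations. The sort takes cells in which Dlx6-Cre has acted, and no library of undifferentiated ES cells or unsorted embryoid bodies was analysed here, so no level stands for a culture made up of ES cells alone.

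Transcript levels are given in TPM, a unit corrected for transcript length in which each library has the same total. It keeps no read counts, so depth is unknown. The library labelled N/D replicate 1 stood apart: of 6139 genes that reached 10 TPM in the remaining 3 libraries, 613 had a value of 0 there, against 0 to 2 genes for any other library. Of all genes above 0 somewhere, 43.1% were at 0 in that library, and of the tested genes 26.1%. A 0 in that library is therefore given only as a listing at 0. Neuronal transcripts were present in every library: all 10 neuron markers and all 8 GABAergic markers had at least 1 TPM in each. That floor does not measure the share of neurons, and all 10 neural progenitor markers also reached it in the libraries other than N/D replicate 1. Tubb3, the neuronal beta-tubulin, had 2048 and 1509 TPM in replicates 1 and 2 of N/D and 2774 and 2455 TPM in those of N/D/S.

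In ES cells, Pou5f1 (Oct4), Nanog, Esrrb and Klf4 are transcription factors that hold each other and many shared targets active, and Zfp42 (Rex1), Dppa5a and Utf1 mark the undifferentiated state. Tdgf1 (Cripto) is a co-receptor for the growth factor Nodal. Lin28a and Lin28b are RNA-binding proteins that block maturation of the let-7 microRNAs, and they stay on in early neural progenitors after the other genes are shut off. Most of these genes are silenced as ES cells become neurons, so their transcripts are read as a trace of cells that did not differentiate. In bulk RNA, a smaller share of such cells and less transcript in each of them cannot be told apart.

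The values of the 2 lines overlapped for all 10 genes. Only 14.1% of all genes above 0 in at least 1 library separated the lines, so this overlap is not read as a trait of the 10. Of the 10, 7 had more TPM in both libraries numbered replicate 2 than in both numbered replicate 1: Dppa5a, Utf1, Pou5f1, Zfp42, Nanog, Esrrb and Tdgf1. The same order held for 12.8% of the 23608 genes above 0 in at least 1 library. Lin28a and Lin28b had another order, with N/D/S replicate 1 highest, and Klf4 was under 1 TPM in all libraries. With N/D replicate 1 left out, and N/D/S replicate 1 as the only comparison, the count was again 7 of 10, where 16.5% of all genes had both replicate 2 libraries higher. At least 2 units on the log2(TPM + 1) scale separated both replicate 2 libraries from N/D/S replicate 1 for 3 of the 10 genes, Dppa5a, Utf1 and Pou5f1, and for 0.445% of all genes. A replicate number was shared by libraries of both lines, and what else the same-numbered libraries shared is not given in the labels.

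**Figure D1:**
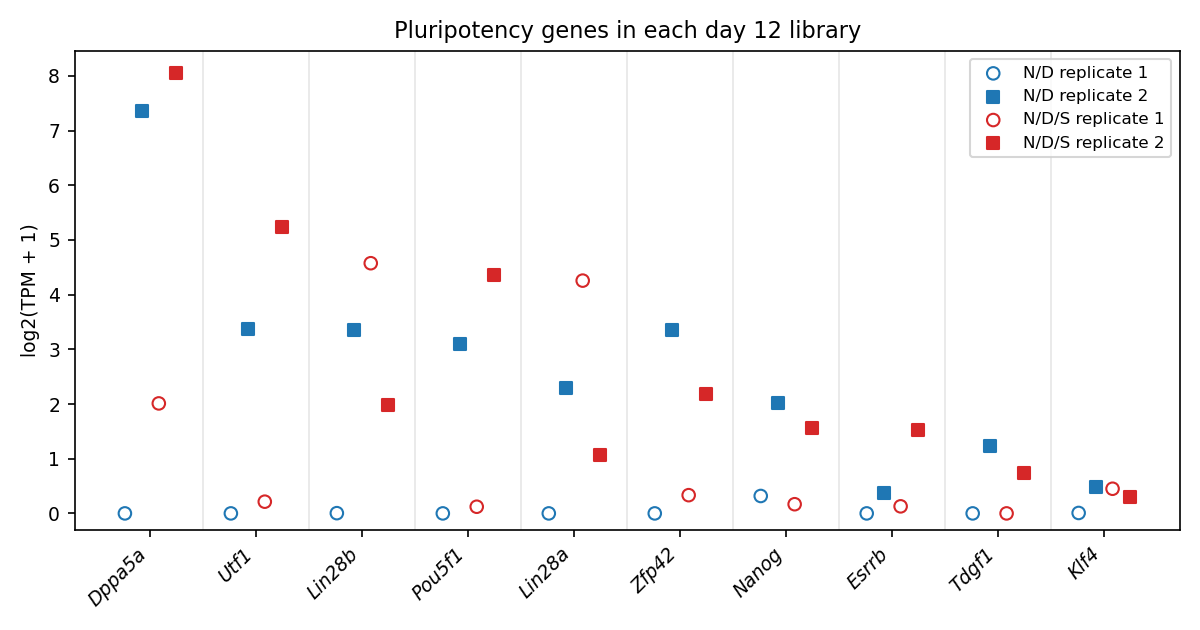
Level of each of the 10 pluripotency genes, as log2(TPM + 1), in the 4 libraries, with genes ordered by mean TPM. Points are single libraries (blue N/D, red N/D/S; open circles replicate 1, filled squares replicate 2). For Dppa5a, Utf1, Pou5f1, Zfp42, Nanog, Esrrb and Tdgf1 both squares lie above both circles, while for Lin28a and Lin28b the open red circle is highest.

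Pou5f1, the POU-domain factor at the centre of the ES cell network, lies on the plus strand of chromosome 17 of GRCm38 from 35506018 to 35510772. It had 7.55 TPM in N/D replicate 2 and 19.5 TPM in N/D/S replicate 2, against 0.0881 TPM in N/D/S replicate 1, with a listing at 0 in N/D replicate 1. Both replicate 2 libraries were thus high and both replicate 1 libraries low, whichever the line. Within the N/D/S line the replicate 2 value was 222 times the replicate 1 value.

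Nanog, a homeobox factor of the same network, lies on the plus strand of chromosome 6 from 122707489 to 122714633. It had 3.04 TPM in N/D replicate 2 and 1.96 TPM in N/D/S replicate 2, against 0.247 TPM in N/D replicate 1 and 0.123 TPM in N/D/S replicate 1. Nanog was the only one of the 10 genes above 0.1 TPM in N/D replicate 1.

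Zfp42, a zinc finger gene lost early as ES cells leave the naive state, lies on the minus strand of chromosome 8 from 43295063 to 43306980. It had 9.26 TPM in N/D replicate 2 and 3.55 TPM in N/D/S replicate 2, against 0.26 TPM in N/D/S replicate 1 and a listing at 0 in N/D replicate 1. Zfp42 and Nanog were higher in the N/D library of the replicate 2 pair, whereas Pou5f1 was higher in the N/D/S library.

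The windows upstream of these genes were searched for the octamer, the site read by POU-domain factors such as Pou5f1. The sequences are those of RefSeq on GRCm38.p6, 250 bases before each annotated start, and 9 of the 10 genes were in the table; Dppa5a was not. The letters searched, on both strands, were TTTGCAT for the octamer core, ATTTGCAT for the octamer, which contains the core, and the core followed by any base and then ACAA, the centre of a SOX site. They were chosen after the windows had been seen. The core was present for 2 of the 9 genes, Nanog and Zfp42, and for 4.65% of the 27025 genes in the table. The full octamer was found for Zfp42 and for 1.81% of all genes, and the core with the SOX site for Nanog and for 0.0333% of all genes. A match describes the letters only. A window with a match is shown for each gene, 5′ to 3′ on the strand of the gene and with the matched letters in capitals, Nanog at chr6:122707239-122707488 on the plus strand and Zfp42 at chr8:43307010-43307259 on the minus strand.
Nanog: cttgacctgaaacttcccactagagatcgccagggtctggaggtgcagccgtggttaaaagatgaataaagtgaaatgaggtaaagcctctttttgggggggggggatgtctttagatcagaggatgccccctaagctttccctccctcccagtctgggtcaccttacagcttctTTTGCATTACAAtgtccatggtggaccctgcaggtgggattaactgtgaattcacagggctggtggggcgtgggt
Zfp42: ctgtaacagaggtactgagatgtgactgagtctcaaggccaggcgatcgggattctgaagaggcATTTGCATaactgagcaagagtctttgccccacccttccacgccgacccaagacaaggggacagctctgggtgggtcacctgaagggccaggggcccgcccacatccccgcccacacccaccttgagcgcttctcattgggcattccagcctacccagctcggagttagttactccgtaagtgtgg

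The capitals in Nanog begin 75 bases before the start that this window was taken from and those in Zfp42 186 bases before it. For Nanog a second annotated start gives a window that overlaps the one shown and holds the same match, 151 bases before that start. The search covered no distal enhancer.

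Esrrb, an orphan nuclear receptor on the plus strand of chromosome 12 from 86361117 to 86521628, had 0.298 TPM in N/D replicate 2 and 1.87 TPM in N/D/S replicate 2. Of the replicate 1 libraries, N/D/S had 0.0936 TPM and N/D a listing at 0. Only N/D/S replicate 2 reached 1 TPM, so Esrrb failed the filter of at least 1 TPM in at least 2 libraries. Klf4, a zinc finger factor on the minus strand of chromosome 4 from 55527143 to 55532466, had 0.00551 and 0.405 TPM in replicates 1 and 2 of N/D and 0.367 and 0.229 TPM in those of N/D/S. Klf4 did not take part in the difference between replicate numbers, and it failed the same filter.

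Dppa5a, which encodes a small RNA-binding protein of ES and germ cells, had the highest mean of the 10 genes, 108 TPM over the 4 libraries. The gene lies on the minus strand of chromosome 9 from 78367052 to 78368177. It had 164 TPM in N/D replicate 2 and 265.5 TPM in N/D/S replicate 2, against 3.03 TPM in N/D/S replicate 1 and a listing at 0 in N/D replicate 1. Dppa5a was thus the 1190th most abundant of all symbols in N/D replicate 2 and the 694th in N/D/S replicate 2, but the 10979th in N/D/S replicate 1. Per 1000 TPM of Tubb3 it had 109 TPM in N/D replicate 2 and 108 TPM in N/D/S replicate 2, against 1.09 TPM in N/D/S replicate 1. By the same measure Pou5f1 had 5.0 and 7.95 TPM and Utf1 6.17 and 14.9 TPM in the N/D and N/D/S replicate 2 libraries. The closeness of these libraries thus held for Dppa5a and not for Pou5f1 or Utf1, and it depended on the marker chosen. Tubb3 was 1.63 times as high in N/D/S replicate 2 as in N/D replicate 2, near the 1.62 times of Dppa5a. All other neuron markers were lower in N/D/S replicate 2, among them Stmn2 at 0.711 times and Map2 at 0.289 times.

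Some Dppa5a reads could be assigned to copies. Transcripts of 7 other genes matched a Dppa5a transcript over at least 200 bases at 95% identity or more, 6 of them copies listed at under 0.2 TPM in all libraries. The seventh, Pigp, matched over 417 bases at 95.9% identity and had 212 and 206 TPM in replicates 1 and 2 of N/D and 168 and 145 TPM in those of N/D/S. Pigp was highest in N/D replicate 1, where Dppa5a was listed at 0, so its order was not that of Dppa5a. How the authors' counting divided reads between them is not known. Copies named for Nanog, Tdgf1 and Zfp42 stayed under 1 TPM in all libraries, with Zfp42-ps1 highest, at 0.733 TPM in N/D replicate 2.

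Utf1, a chromatin-associated gene of ES cells on the plus strand of chromosome 7 from 139943789 to 139945112, had 9.31 TPM in N/D replicate 2 and 36.6 TPM in N/D/S replicate 2. In replicate 1 it had 0.16 TPM in N/D/S and a listing at 0 in N/D. The N/D/S replicate 2 value was 229 times that of N/D/S replicate 1, a ratio that rests on a denominator under 1 TPM, as does that of Pou5f1. On the log2(TPM + 1) scale the difference between these libraries was 5.02 for Utf1, 4.24 for Pou5f1 and 6.05 for Dppa5a. Tdgf1, on the minus strand of chromosome 9 from 110939603 to 110946158, had 1.34 TPM in N/D replicate 2 and 0.661 TPM in N/D/S replicate 2, with a listing at 0 in both replicate 1 libraries. Tdgf1 reached 1 TPM in 1 library and failed the filter.

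**Figure D2:**
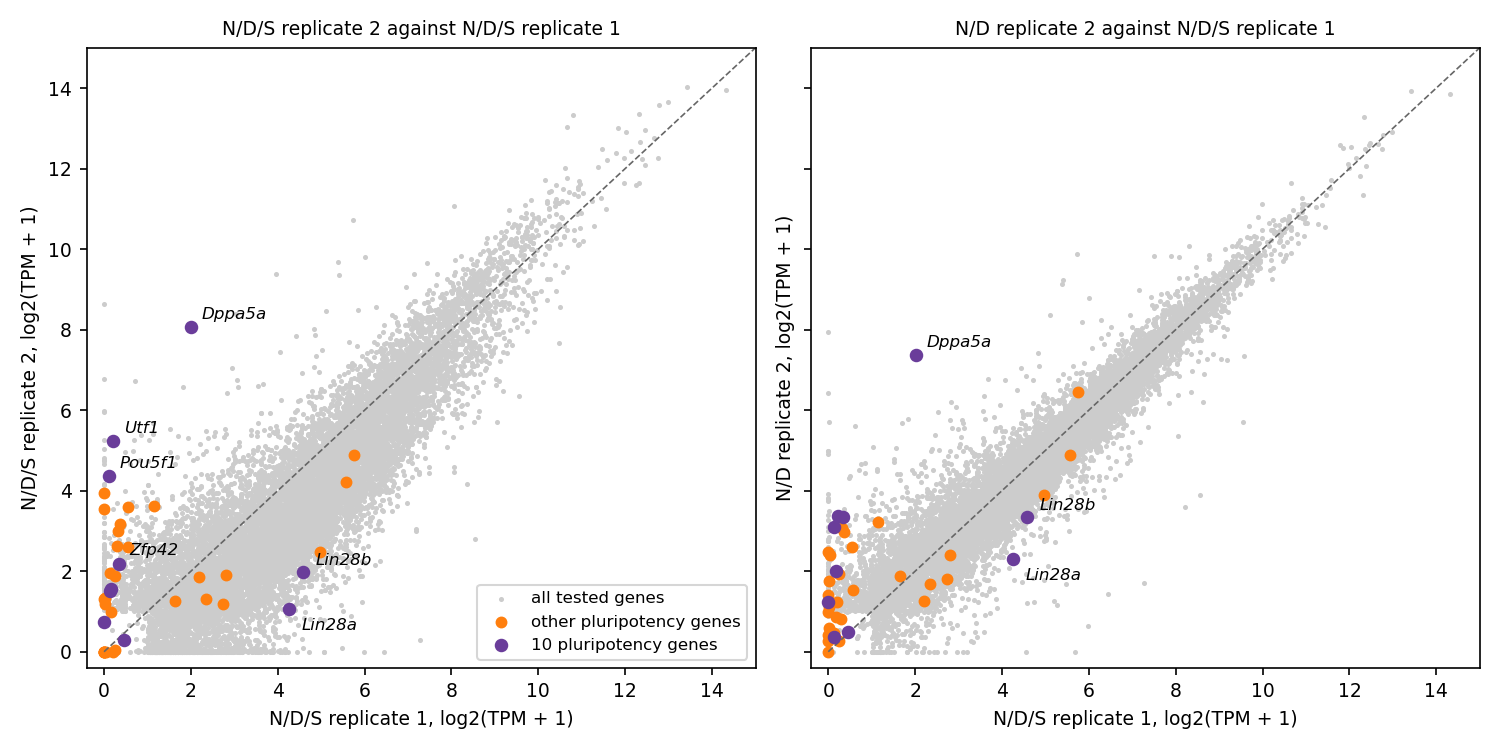
Levels in N/D/S replicate 2 (left) and N/D replicate 2 (right), each against N/D/S replicate 1, on the log2(TPM + 1) scale. Grey points are the 12975 tested genes, orange points other pluripotency genes and purple points the 10 pluripotency genes, and the dashed line marks equal levels. Dppa5a stands well above the line in both panels, at 265.5 and 164 TPM against 3.03 TPM, while Lin28a and Lin28b lie below it.

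Lin28a and Lin28b, on the minus strands of chromosome 4 from 134003330 to 134018841 and of chromosome 10 from 45376620 to 45486395, behaved differently. Lin28a had 18.1 and 1.1 TPM in replicates 1 and 2 of N/D/S. In N/D it was listed at 0 in replicate 1 and had 3.9 TPM in replicate 2. Lin28b had 22.8 and 2.97 TPM in replicates 1 and 2 of N/D/S, against 0.003 and 9.22 TPM in those of N/D. Both were thus highest in N/D/S replicate 1 and lowest in N/D replicate 1, although Pou5f1, Utf1 and Zfp42 were under 1 TPM in each of these. Within the N/D/S line the replicate 1 value was 16.5 times that of replicate 2 for Lin28a and 7.7 times for Lin28b. Having N/D/S replicate 1 highest was common, since 37.6% of the 23608 genes above 0 in at least 1 library had it. A lone transcript of another gene, Gm13061, overlapped Lin28a by 235 identical bases and has no value here.

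The sum of the 10 genes hid this split. It was 0.256 and 209 TPM in replicates 1 and 2 of N/D, and 45.1 and 334 TPM in those of N/D/S. Dppa5a made up 78.8% and 79.5% of the sum in the replicate 2 libraries, and Lin28a with Lin28b made up 90.9% of it in N/D/S replicate 1. Without Dppa5a, the sum was 44.3 TPM in N/D replicate 2, and 42.1 and 68.4 TPM in replicates 1 and 2 of N/D/S, so most of the gap between replicate numbers in the N/D/S line was gone. For Pou5f1, Nanog, Zfp42, Esrrb, Tdgf1 and Utf1 alone, the sums were 30.8, 0.725 and 64.2 TPM in the same order. A summed pluripotency score over these libraries therefore depended on which genes entered it.

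By mean TPM over the 4 libraries, the order of the genes was Dppa5a, Utf1, Lin28b, Pou5f1, Lin28a, Zfp42, Nanog, Esrrb, Tdgf1 and Klf4. Each neighbouring pair in that order had overlapping ranges over the libraries. Nanog and Esrrb were the neighbours whose order was the same in all 4 libraries, while Dppa5a was above Utf1 in 3 of 4, both being listed at 0 in N/D replicate 1.

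The lines were built to differ in the St18 transgene, and each was grown from selected clones, so clone and transgene cannot be told apart here. None of the 10 genes had N/D and N/D/S values that did not overlap, a pattern found in 14.1% of the genes above 0 in at least 1 library. Between the lines, 7 of the 10 genes passed the filter and entered limma's fit over 12975 genes. The fit called no gene at an adjusted p of 0.05 with Benjamini-Hochberg adjustment (0.0% higher and 0.0% lower in N/D/S), so the count among the 10, given as a description, was 0. Of all genes tested, 3 were higher and 5 lower at an unadjusted p under 0.05. Of the 7 genes, Pou5f1, Nanog, Zfp42 and Utf1 reached the filter through the replicate 2 libraries alone.

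On the log2(TPM + 1) scale, the difference of N/D/S minus N/D was 1.35 (standard error 2.72) for Dppa5a, 1.04 (standard error 1.87) for Utf1 and 0.69 (standard error 1.69) for Pou5f1. It was −0.30 (standard error 1.12) for Nanog and −0.42 (standard error 1.40) for Zfp42. For Lin28a it was 1.52 (standard error 1.42) and for Lin28b 1.60 (standard error 1.48). All 7 differences were below the spread between libraries of a line (residual standard deviation), which ran from 1.10 for Nanog to 4.77 for Dppa5a, where the median of all tested genes was 1.03. Over all tested genes the median difference was 0.26. A listing at 0 in N/D replicate 1 entered 5 of these 7 differences. Without that library, Dppa5a was at −2.33, Utf1 at −0.64, Pou5f1 at −0.86 and Lin28b at −0.071, each reversed, and leaving out any of the other libraries also reversed at least 2 of the 7.

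In the replicate 2 pair, where each library had 8 of the 10 genes at 1 TPM or more, the lines did not differ in 1 direction. The N/D/S library was higher for 4 of the 10 genes, with 6.28 times the TPM of the N/D library for Esrrb, 3.93 times for Utf1, 2.59 times for Pou5f1 and 1.62 times for Dppa5a. The N/D library was higher for the other 6, with 3.56 times the TPM for Lin28a, 3.11 times for Lin28b, 2.61 times for Zfp42, 2.03 times for Tdgf1, 1.77 times for Klf4 and 1.55 times for Nanog. Each ratio compares 1 library with 1 library and has no replicate check, and those for Esrrb, Tdgf1 and Klf4 rest on values under 1 TPM. In the replicate 1 pair, N/D/S was higher for 8 of the 10 genes, but against a library in which 7 of the 10 were listed at 0, as were 43.1% of all genes above 0 in at least 1 library. With 2 libraries per line, the smallest p of a two-sided exact permutation test is 0.3333.

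Other genes of the ES cell state showed how far the replicate pattern reached. Of 29 further pluripotency genes, 14 (48.3%) had both replicate 2 libraries above both replicate 1 libraries: Klf2, Klf5, Dppa2, Dppa3, Dppa4, Gdf3, Lefty1, Tdh, L1td1, Zfp296, Zscan10, Eras, Tcl1 and Dnmt3l. The count was again 14 with N/D replicate 1 left out, and 0 of the 18 genes tested between the lines were past the adjusted threshold. In 5 of the 29 (17.2%), both replicate 2 libraries were at least 2 log2 units above N/D/S replicate 1. These were Klf2 and Klf5, Kruppel-like factors of the naive state, Dppa3 (Stella), a maternal and germ line gene, Lefty1, a Nodal antagonist, and Tdh, a threonine-catabolizing enzyme of mouse ES cells. Dppa3 had 4.57 TPM in N/D replicate 2 and 14.4 TPM in N/D/S replicate 2, with a listing at 0 in both replicate 1 libraries.

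The 3 most abundant genes of that list, Sox2, Stat3 and Gbx2, did not have both replicate 2 libraries higher. Sox2, a partner of Pou5f1 in ES cells and a factor of neural progenitors, had 14.5 and 86.3 TPM in replicates 1 and 2 of N/D and 52.6 and 28.3 TPM in those of N/D/S. Stat3, which relays the LIF signal in ES cells, had 1.2, 28.5, 46.2 and 17.4 TPM in the same order. Gbx2, a homeobox gene also of the neural tube, had 52.2, 13.8, 30.2 and 4.54 TPM. Of these, Gbx2 was lower in both replicate 2 libraries than in both replicate 1 libraries, while Sox2 and Stat3 did not separate the replicate numbers. Fgf4 and Nr5a2 were above 0 only in N/D replicate 2, at under 0.4 TPM, and Prdm14 was listed at 0 in all libraries.

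**Figure D3:**
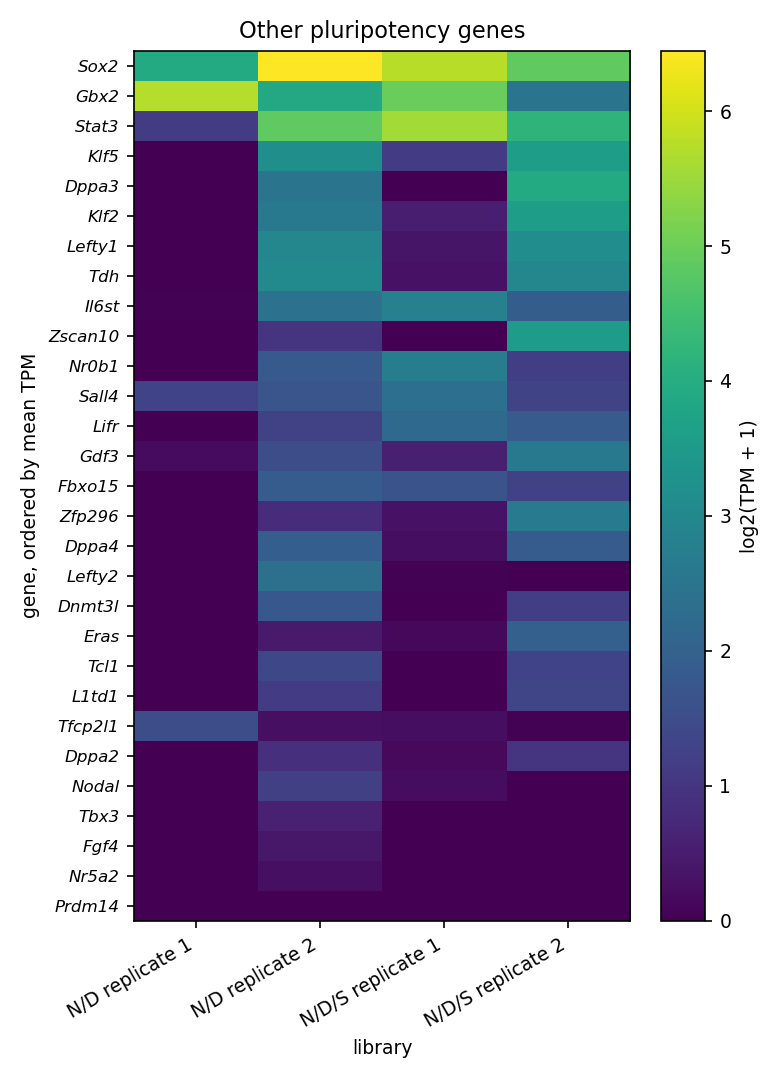
Heat map of 29 other pluripotency genes (rows, ordered by mean TPM) in the 4 libraries (columns), coloured by log2(TPM + 1). Dark cells are low: Klf5, Dppa3, Klf2, Lefty1 and Tdh are darker in both replicate 1 columns than in both replicate 2 columns, whereas Sox2, Gbx2 and Stat3 are bright in N/D/S replicate 1.

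Of 7 primed epiblast genes, which mark the stage after the naive state, 3 had both replicate 2 libraries higher. These were Dnmt3b, a DNA methyltransferase, at 4.59 and 2.55 TPM in the N/D and N/D/S replicate 2 libraries against 0.623 TPM in N/D/S replicate 1, and the less abundant (by mean TPM) Zic2 and Fgf5. The 3 most abundant genes of the list were Pou3f1, Sox3 and Otx2, all of which also act in neural cells. Pou3f1, a POU-domain factor, was close to even, between 21.5 and 28.6 TPM. Sox3 ran from 8.9 to 15.9 TPM. Otx2 had 14.7 TPM in N/D replicate 2, and 4.03 and 1.72 TPM in replicates 1 and 2 of N/D/S.

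Lin28a and Lin28b act on let-7, whose mature form let-7a is shown with the seed by which it recognizes its targets. It is encoded, among other loci, at chr13:48538239-48538260 on the minus strand (RefSeq, GRCm38.p6), with that seed, bases 2 to 8, in capitals.
let-7a: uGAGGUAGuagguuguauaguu

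Poly-A selected libraries do not report mature microRNAs, so let-7 itself was not measured. A list of 18 symbols held enzymes of let-7 processing and decay and known let-7 targets, and 16 were found, with 2 older symbols absent. Of the 16, 12 (75.0%) had N/D/S replicate 1 highest, as Lin28a and Lin28b did, against 37.6% of all genes, and 15 were higher in N/D/S replicate 1 than in N/D/S replicate 2, against 67.7% of all genes. The order was not particular to the let-7 list, since all 10 neuron markers and all 8 GABAergic markers were also higher in N/D/S replicate 1 than in the other N/D/S library, and 62.5% of the GABAergic markers had N/D/S replicate 1 highest. None of the 16 passed the adjusted threshold between the lines (0 higher, 0 lower), and their median difference was −0.036 on the log2(TPM + 1) scale, against 0.26 for all tested genes.

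Igf2bp1 and Igf2bp2, RNA-binding proteins under let-7 control, had 65.7 and 41.9 TPM in N/D/S replicate 1 and 10.8 and 5.31 TPM in N/D/S replicate 2. Mycn, a proto-oncogene of neural progenitors, had 50.2 TPM in the former and 11.7 TPM in the latter. Hmga2, a chromatin protein and a classic let-7 target, was low, between 0.87 and 1.54 TPM in the libraries other than N/D replicate 1. Igf2bp1 was among the 3 most abundant genes of the list. The other two, Ccnd2, a cyclin, and Tut4, an enzyme that tails the let-7 precursor, did not have N/D/S replicate 1 highest: Ccnd2 was highest in N/D replicate 2, at 107.5 TPM, and Tut4 in N/D replicate 1, at 67.1 TPM.

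**Figure D4:**
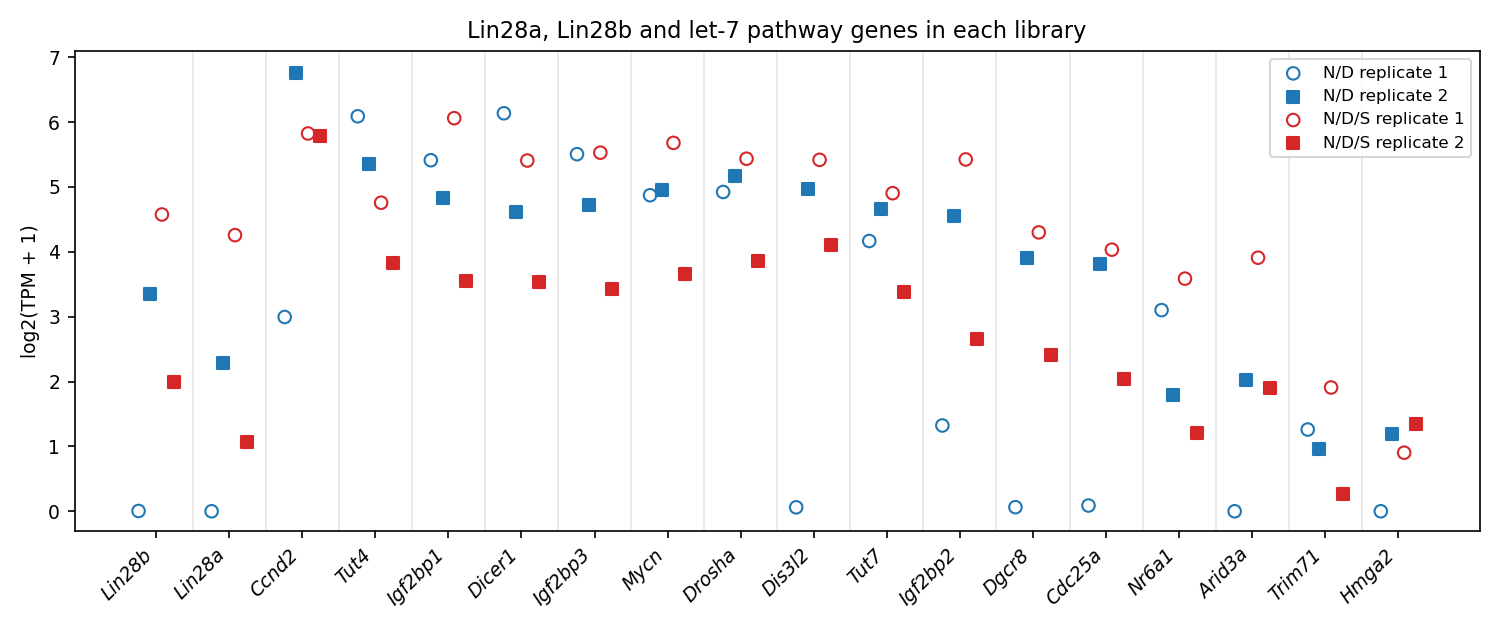
Lin28b, Lin28a and 16 genes of let-7 processing or let-7 control, as log2(TPM + 1) in the 4 libraries (blue N/D, red N/D/S; open circles replicate 1, filled squares replicate 2). The open red circle, N/D/S replicate 1, is highest for Lin28a, Lin28b and 12 of the 16 genes, and it lies above the filled red square for 15 of the 16.

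Markers of other cells were read beside the replicate pattern. The 10 neuron markers summed to 5060 and 5684 TPM in the N/D and N/D/S replicate 1 libraries and to 3552 and 3451 TPM in the replicate 2 libraries. These sums were made up mostly of Tubb3 and Stmn2. The median of the 10 markers gave another order, with 125 and 180 TPM in replicates 1 and 2 of N/D, against 267 and 65.6 TPM in those of N/D/S. Map2, a dendritic microtubule protein, was among 5 of the 10 with more TPM in N/D replicate 2 than in N/D replicate 1, at 278.5 against 145 TPM. Of these 10 genes, 0 had both replicate 2 libraries higher, as had 0 of 8 GABAergic markers. The 8 GABAergic markers summed to 567 and 1148 TPM in replicates 1 and 2 of N/D and to 1321 and 500.2 TPM in those of N/D/S.

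The 10 neural progenitor markers summed to 474.5, 1152, 488 and 704 TPM in that same order. Fabp7, the radial glial lipid-binding protein, was the most abundant, with 134, 906.5, 179 and 506 TPM, and was higher in both replicate 2 libraries, as were 2 of the 10 genes in all. Vim, an intermediate filament, had 219, 123, 150.1 and 78.3 TPM. Hes5, a Notch effector, had a listing at 0 in N/D replicate 1, then 22.6, 61.8 and 69.2 TPM in the same order. Neither gave the order of Fabp7, which for Hes5 also holds without N/D replicate 1. Of 10 cell cycle markers, 4 had both replicate 2 libraries higher, among them Cdk1, at 60.2 and 46.3 TPM in the N/D and N/D/S replicate 2 libraries and 26.6 TPM in N/D/S replicate 1. Birc5, also among the 4, had 35.7 and 80.1 TPM in replicates 1 and 2 of N/D and 29.6 and 40.3 TPM in those of N/D/S. Pcna, the most abundant of that list, was not among them, with 61.0, 106.1, 72.5 and 67.5 TPM in the same order. The markers outside the 4 were all lower in N/D/S replicate 2 than in N/D/S replicate 1, as in Top2a, at 6.17 against 17.3 TPM. None of these markers passed the adjusted threshold between the lines (0 in each list, limma with Benjamini-Hochberg adjustment). The part of any of these cells in the levels of the pluripotency genes was not tested.

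**Figure D5:**
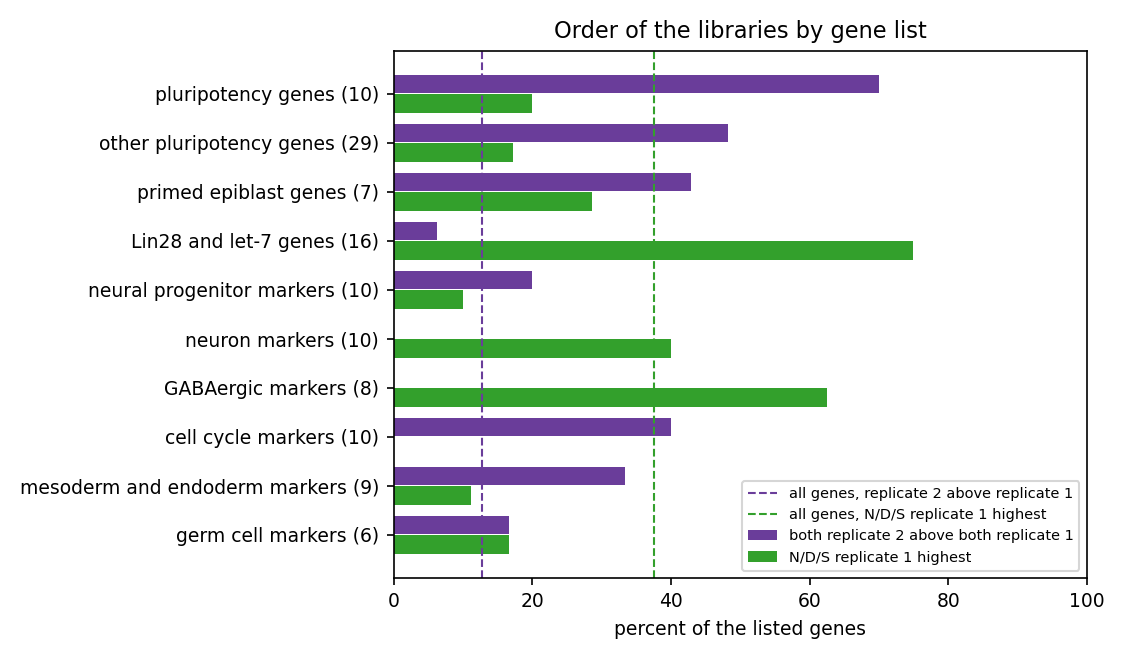
Share of the genes of each list (percent, number of genes found in brackets) with both replicate 2 libraries above both replicate 1 libraries (purple) and with N/D/S replicate 1 highest (green). Dashed lines mark the shares among all genes above 0 in at least 1 library, 12.8% and 37.6%. The purple share is 70% for the 10 pluripotency genes and 48.3% for the 29 others, and 0 for neuron and GABAergic markers.

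The gene with the highest mean, Dppa5a, was set beside all tested genes by Euclidean distance on log2(TPM + 1) over the 4 libraries. The nearest genes were Mt2 (distance 2.18), Cited1 (2.22) and Mt1 (2.45). Mt1 and Mt2 encode metallothioneins, small metal-binding proteins, and Cited1 a transcriptional coregulator. Mt2 had 54.4 and 93.8 TPM in the N/D and N/D/S replicate 2 libraries and 2.55 TPM in N/D/S replicate 1, and all 3 were listed at 0 in N/D replicate 1.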

How the data were processed

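The 4 libraries were made from poly-A selected RNA of sorted tdTomato+ cells, sequenced as paired-end reads and pseudoaligned by the authors with kallisto 0.44.0 to a mouse transcriptome (GRCm38 in the submitters' processing notes). The deposited values are TPM per gene symbol and library. The release of the transcriptome and the way transcripts were combined into genes are not given in the sources used here, and no scaling between libraries is stated. Depth is unknown, so no interval or detection limit is given, and p-values measure only the spread between these libraries.

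The files were joined on symbol after 24 symbols turned into dates were left out (35197 symbols are listed in both replicate 1 files and 35204 in both replicate 2 files). Differences between the lines were fitted with limma 3.58.1 (R 4.3.3) on log2(TPM + 1) for the 12975 genes reaching 1 TPM in 2 or more libraries, without covariates, with Benjamini-Hochberg adjustment at 0.05. The fit was tested on simulated data. Sleuth, named in the processing notes, could not be run on TPM alone. Positions came from GENCODE M21 (GRCm38), transcript similarity from blastn 2.17.0, and tables and figures from Python 3.11.15.

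Groups came from the sample titles. The 10 genes, the other lists and the tests were chosen with earlier results of these data known. Genes named are the 10, the 3 most abundant of each other list, copies of the 10 above 1 TPM, and the 3 genes nearest in pattern to the most abundant of the 10. A further let-7 target is not reported here and is not counted in its list. All other genes named were chosen after their values were seen. Alternatives were pseudocounts of 0.5 and 0.1, no filter, a floor of 1 TPM in all libraries, a floor of 0.5 TPM for the count of the 10 genes detected, scaling by upper quartile or median of ratios, replicate number as a block, a variance trend, and each library left out. The counts by replicate number and the sum without Dppa5a were added after the values were seen.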

Additional observations from a re-analysis of the deposited data

How the results depend on the processing

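Over 33 results and 367 alternative values, 340 were taken as unchanged. That meant the same direction and call, a count within a fixed factor, or a sum within the spread of the libraries. Many of the 340 were counts of 0 against 0, some for lists with no gene tested in that setting, so 340 is not a measure of robustness. The cause of the changes was not tested. The counts past the adjusted threshold between the lines (limma, Benjamini-Hochberg) were 0 higher and 0 lower in every alternative with all libraries, apart from the variance trend, with 5 genes higher and 1 lower, none of them among the 10. Genes at an unadjusted p under 0.05 ran from 8 to 224 with all libraries. With replicate number as a block, 0 genes and 0 of the 10 were past the threshold and 9 had an unadjusted p under 0.05; deviations of same-numbered libraries had a correlation of 0.0197 over the tested genes, so the numbers were not taken as pairs. The standard error of the Dppa5a difference was 1.28 with the block.

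With each library left out in turn, where the lone library of a line is assumed to vary like the others, 0 to 2213 genes were higher and 0 to 160 lower in N/D/S, with both highest values without N/D replicate 2, which leaves N/D replicate 1 alone in its line. In that setting 17.1% of all tested genes were higher, and the counts rose from 0 to 2 of the 7 tested pluripotency genes (Dppa5a and Lin28b), 1 for other pluripotency genes, 2 for the let-7 list, 1 for neural progenitor, 4 for cell cycle and 1 for germ cell markers. Log2 differences of N/D/S minus N/D ranged from −1.43 to 2.81 for Pou5f1, −1.15 to 0.55 for Nanog, −2.10 to 1.26 for Zfp42, −2.33 to 5.03 for Dppa5a, −0.079 to 3.11 for Lin28a, −0.071 to 3.28 for Lin28b and −1.47 to 3.55 for Utf1. With a pseudocount of 0.1, Zfp42 was at 0.24. The genes at 1 TPM or more in at least 2 libraries ranged from 3 to 7, with 3 without either replicate 2 library, and with a floor of 0.5 TPM 8 of the 10 passed. The log2(sum + 1) of the 10 genes, N/D/S minus N/D, was 2.94 and ranged from −0.75 to 6.63. With a library left out, the counts with both replicate 2 libraries higher ranged from 7 to 10 of the 10 genes and from 14 to 21 of the 29 others. All 10 were counted without N/D/S replicate 1, which leaves N/D replicate 1 as the only replicate 1 library. That library listed 7 of the 10 genes at 0, and 43.1% of all genes above 0 in at least 1 library. The share of all genes was not computed for that setting, so its counts are not read as a trait of these genes. The counts by replicate number were 8 and 15 with median-of-ratios scaling and 7 and 15 with upper quartile scaling.

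The median difference of all genes shifted from 0.26 to 0.024 with no filter, to −0.15 with a floor of 1 TPM in all libraries (where none of the 10 genes was tested) and to 0.38 with a pseudocount of 0.1. It was −0.29 without N/D replicate 1, and leaving out N/D replicate 2 gave 0.88. How far depth limits detection of the 10 genes cannot be read from TPM.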

Other observations

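Markers of cell types that ES cells can form outside the neural lineage were read in the same libraries. Of 9 mesoderm and endoderm markers found, the list summed to 14.2 TPM in N/D replicate 2, 7.98 TPM in N/D/S replicate 2, 2.46 TPM in N/D/S replicate 1 and 0.0133 TPM in N/D replicate 1. Foxa2, a factor of endoderm and of the floor plate, made up most of these sums, with 10.6, 5.88 and 1.63 TPM in the first 3 of these libraries, while Gsc and Ttr stayed under 2 TPM and Gata6 was listed at 0 in all libraries. Of the mesoderm and endoderm markers, 3 had both replicate 2 libraries above both replicate 1 libraries.

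Of 6 germ cell markers, Nanos3, an RNA-binding protein of primordial germ cells, had 36.6 TPM in N/D replicate 2 and 30.8 and 25.9 TPM in replicates 1 and 2 of N/D/S. In N/D replicate 1 it had 0.19 TPM. Mael and Prdm1, next in abundance, stayed under 1.5 TPM, and Dazl and Ddx4 under 0.6 TPM, so the level of Nanos3 was not shared by the rest of the list.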
